A study of Mus musculus with 4 samples.

Results

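Mitochondrial ribosomal protein genes were taken as all measured mouse genes whose symbol begins with Mrpl or Mrps followed by a number. There were 78 such genes among the 13085 genes measured, and they are all 78 protein-coding RefSeq genes of that name form. Of these, 49 are named Mrpl and 29 Mrps. By the place of the protein in the ribosome, 51 belong to the large subunit and 26 to the small subunit. Mrps36 was assigned to neither, since its product is known as a subunit of the oxoglutarate dehydrogenase complex. The rule that picks the members uses the name and no measured value.

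The mitochondrial ribosome translates the few messages encoded by mitochondrial DNA, whose products are core subunits of the respiratory chain and of ATP synthase. Its protein components are encoded in the nucleus, made in the cytosol and imported, and they assemble in the mitochondrion with ribosomal RNA transcribed from mitochondrial DNA. Some have counterparts in bacterial ribosomes and others are found only in mitochondria. White adipocyte differentiation is known to go along with an increase in mitochondrial mass.

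RNA-seq had been run on 4 stable 3T3-L1 lines, derived from murine preadipocytes that become lipid-laden on hormonal induction, with 1 library per line. FLAG carried the empty FLAG vector, FLAG-CACUL1 overexpressed FLAG-tagged CACUL1, sh-Luc expressed a hairpin against luciferase, and sh-CACUL1 expressed a hairpin against CACUL1. The FLAG lines had been selected with G418 and the hairpin lines with hygromycin B. All 4 were brought to confluence and given rosiglitazone (5 μM), IBMX (0.5 mM), dexamethasone (1 μg/mL) and insulin (5 μg/mL), and RNA was taken on differentiation day 8. FLAG-CACUL1 was compared with FLAG and sh-CACUL1 with sh-Luc, to ask how CACUL1 level and the transcriptome of differentiating adipocytes are related. With 1 library per line no difference has a replicate check, and the CACUL1 vector cannot be told apart from other differences between the lines. A gene is said to have risen or fallen at 2-fold or more on the log2(FPKM + 1) scale, where FPKM is fragments per kilobase of transcript scaled to each library's mapped fragments. Where 4 values follow one another they stand for FLAG, then FLAG-CACUL1, then sh-Luc, then sh-CACUL1.

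Cacul1 RNA stood at 9.61 FPKM in FLAG and 11.8 in FLAG-CACUL1, and at 10.2 in sh-Luc and 5.39 FPKM in sh-CACUL1. Neither its difference of 0.27 in overexpression nor that of -0.82 in knockdown reached 2-fold on the log2(FPKM + 1) scale. The authors checked both lines at the protein level, by western blotting against FLAG or CACUL1. Whether the Cacul1 value counts messages from the FLAG-CACUL1 vector is not given in the sources used here. Steps in the low FPKM values corresponded to 14500000, 14300000, 24200000 and 15200000 fragments. Adipocyte markers separated the lines. Of 10 listed, 9 were measured, and all 9 were past 2-fold in both comparisons, lower with overexpression and higher with knockdown. Between the controls, 8 of 9 were 2-fold or more higher in FLAG. The adipokine Adipoq, for example, was at 837 FPKM in FLAG and 23.0 in FLAG-CACUL1, and at 171 in sh-Luc and 1252 FPKM in sh-CACUL1. Among 7 measured preadipocyte and fibroblast markers, 3 were 2-fold higher and 1 was 2-fold lower with overexpression, and 2 were 2-fold higher and 4 were 2-fold lower with knockdown. The 7 together summed to 7187, 8274, 4509 and 1046 FPKM. The 2 that were higher with knockdown were Thy1 and Dlk1, which were low in the control. Thy1 was at 0.66 FPKM in sh-Luc against 34.3 to 144 FPKM in the other 3 lines, and Dlk1 at 0.22 FPKM against 21.2 to 97.2 FPKM. The 4 measured macrophage markers summed to 40.0, 110.5, 9.13 and 6.41 FPKM. Of these, 2 rose and 1 fell with overexpression, 1 fell with knockdown, and 2 were 2-fold or more higher in FLAG than in sh-Luc. Csf1r, 1 of these 4 markers, did not exceed 0.61 FPKM in any library, so the sums came mostly from the other markers. In bulk RNA, fewer cells of a type and less RNA per cell cannot be told apart. The part of these differences in the values given here was not tested.

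Promoter sequences are printed for the 5 of 8 members past 2-fold whose promoter held at least 1 of 3 motifs, to show the motifs in place. A window from 250 bases before to 50 bases after the RefSeq start was found for 69 of the 78 genes, in 75 promoters, and the sequences are from RefSeq on GRCm38.p6. Capitals mark the matches to the NRF1 motif (a GC-rich motif with 1 free position, as seen in Mrpl12 and Mrpl45), the ETS motif CCGGAAG and the YY1 motif AANATGGCG, which were searched on both strands. The windows are chr11:120484387-120484686 (plus strand) for Mrpl12, chr11:97315466-97315765 (plus strand) for Mrpl45, chr13:73330759-73331058 (plus strand) for Mrpl36, chr6:125191950-125192249 (plus strand) for Mrpl51 and chr7:28741772-28742071 (minus strand) for Mrps12, each written 5′ to 3′ in the direction of the gene.
Mrpl12: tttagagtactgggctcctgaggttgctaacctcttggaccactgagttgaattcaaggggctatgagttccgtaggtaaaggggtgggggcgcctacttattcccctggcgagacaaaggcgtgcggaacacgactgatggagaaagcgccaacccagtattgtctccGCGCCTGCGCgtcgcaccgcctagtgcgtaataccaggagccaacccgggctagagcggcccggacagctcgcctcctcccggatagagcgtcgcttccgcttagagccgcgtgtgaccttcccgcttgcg
Mrpl45: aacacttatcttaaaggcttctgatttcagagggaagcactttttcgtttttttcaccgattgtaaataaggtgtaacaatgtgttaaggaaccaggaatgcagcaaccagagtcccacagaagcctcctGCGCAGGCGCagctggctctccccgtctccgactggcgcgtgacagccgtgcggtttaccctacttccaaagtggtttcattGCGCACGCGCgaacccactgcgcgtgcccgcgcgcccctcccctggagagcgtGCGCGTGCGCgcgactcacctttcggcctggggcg
Mrpl36: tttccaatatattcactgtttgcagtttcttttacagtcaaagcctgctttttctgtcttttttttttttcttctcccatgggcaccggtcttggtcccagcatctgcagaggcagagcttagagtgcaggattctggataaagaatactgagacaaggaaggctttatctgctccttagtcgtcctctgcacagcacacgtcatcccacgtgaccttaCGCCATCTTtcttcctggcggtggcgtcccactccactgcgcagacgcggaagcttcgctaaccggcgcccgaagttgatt
Mrpl51: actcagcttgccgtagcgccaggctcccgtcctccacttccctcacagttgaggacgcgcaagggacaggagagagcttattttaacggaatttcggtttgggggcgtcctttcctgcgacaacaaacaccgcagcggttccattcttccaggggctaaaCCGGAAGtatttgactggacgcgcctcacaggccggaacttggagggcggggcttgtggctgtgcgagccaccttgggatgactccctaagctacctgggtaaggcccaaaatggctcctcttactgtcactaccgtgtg
Mrps12: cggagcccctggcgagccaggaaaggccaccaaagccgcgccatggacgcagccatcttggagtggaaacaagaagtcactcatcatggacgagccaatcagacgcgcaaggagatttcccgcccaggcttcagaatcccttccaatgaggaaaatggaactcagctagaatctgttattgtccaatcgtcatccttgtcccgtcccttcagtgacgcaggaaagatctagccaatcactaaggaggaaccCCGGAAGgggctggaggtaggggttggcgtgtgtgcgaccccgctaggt

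Mrpl12 held 1 NRF1 match that began 81 bases before the start, and Mrpl45 held 3, which began 120 and 38 bases before the start and at base 16 of the transcript. In Mrpl36 the YY1 motif lay on the opposite strand, 31 bases before the start, which is why its printed letters are the reverse complement of the motif. Mrpl51 held an ETS match 90 bases before the start, and Mrps12 held one at base 2 of the transcript. The promoters of Mrpl20 and Mrps2 held none of these motifs, and Mrps35 was among the genes with no promoter sequence here.

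At least 1 of the 3 motifs was found in 56% of the member promoters, in 14.2% of all 32851 promoters and in 32.7% of the promoters of genes with at least 1 FPKM in all libraries. By motif, the share of member promoters was 17.3% for NRF1, 34.7% for ETS and 14.7% for YY1, against 11.2%, 20.1% and 5.90% for the expressed genes. The promoters of cytosolic ribosomal protein genes held at least 1 of the 3 in 52.2% and those of oxidative phosphorylation genes in 55.9%. The E-box CACGTG, of which overlap with the other motifs was not excluded, was in 9.33% of member promoters and 10.4% of those of expressed genes. A match describes the letters in the window and not binding.

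All 78 members were at 1 FPKM or more in all 4 libraries, the lowest value being 3.45 FPKM for Mrpl19 in FLAG-CACUL1. Their median was 24.1 FPKM in FLAG and 22.2 in FLAG-CACUL1, and 28.7 in sh-Luc and 32.2 FPKM in sh-CACUL1, while the median of all genes was 6.73, 7.32, 8.28 and 5.68 FPKM. The member median was thus highest in the library where the median of all genes was lowest. The members summed to 2401, 2538, 3097 and 3722 FPKM, or 0.509%, 0.536%, 0.744% and 1.00% of the FPKM of each library. At the estimated depth a member was represented by 49 to 8123 fragments per kilobase, with a median of 447. For 1 kb of transcript, counting error is thus small beside the differences that passed 2-fold. A transcript shorter than 1 kb has fewer fragments and a larger counting error.

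The highest mean FPKM belonged to Mrps6 (209.9), a counterpart of bacterial S6, Mrpl52 (130.4), a mitochondria-specific large subunit protein, and Mrpl12 (121.0), the counterpart of the bacterial L7/L12 stalk protein. Mrps6 was at 90.0 FPKM in FLAG and 158 in FLAG-CACUL1, and at 336 in sh-Luc and 256 FPKM in sh-CACUL1, and Mrpl52 at 91.1, 164, 136 and 131 FPKM likewise. In both genes FLAG was the lowest library. Mrps6 shares 159 exonic bases on the same strand with Slc5a3, so that fragments there could be counted for either gene. The lowest means were those of Mrpl19 (4.66 FPKM), Mrpl35 (5.70 FPKM) and Mrpl1 (5.99 FPKM), all large subunit genes. With 1 library per line, neighbours in this order cannot be separated.

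**Figure D1:**
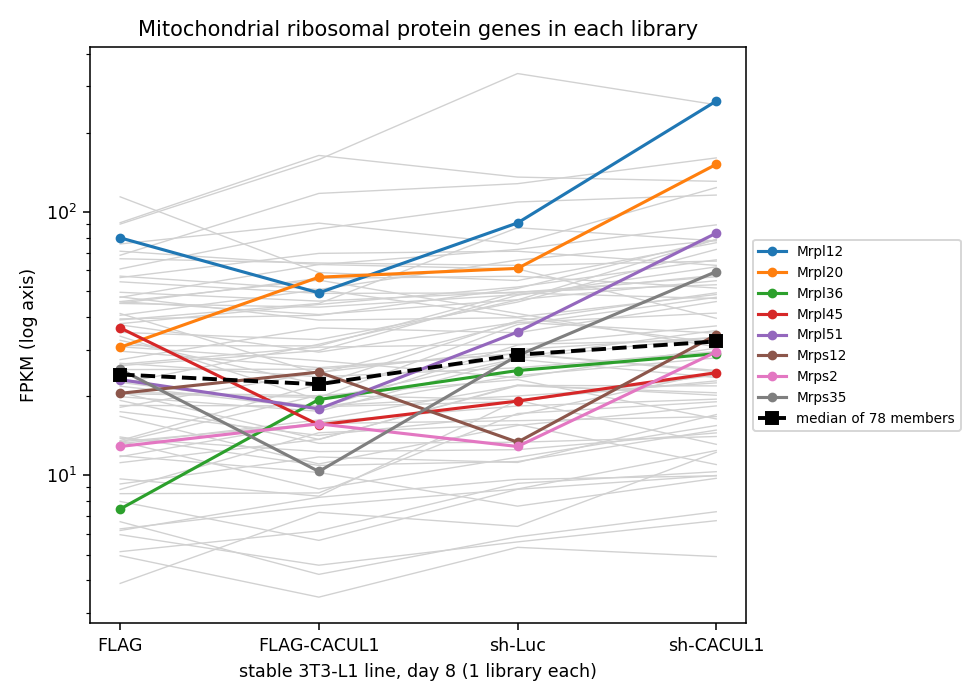
FPKM (log axis) of the mitochondrial ribosomal protein genes in the 4 libraries, 1 library per line. Grey lines are single members, coloured lines the 8 that passed 2-fold in either CACUL1 comparison, and black squares the median of all 78, which lies between 22.2 and 32.2 FPKM. Mrpl12 and Mrpl20 stand highest of the coloured genes in sh-CACUL1.

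On FPKM as deposited, the members varied less across libraries than expressed genes did as a set. These ratios were not computed under other scalings of FPKM, nor for genes matched to the members in expression. Library medians were 22.2 to 32.2 FPKM for the members and 9.76 to 13.8 FPKM for the expressed genes. The ratio of the highest to the lowest library had a median of 1.72 over the members and was under 2 for 54 of 78 (69.2%), against a median of 2.20 and 41.0% for the 9563 genes with at least 1 FPKM in all libraries. Cytosolic ribosomal protein genes varied less (median ratio 1.45, 91.0% under 2) and oxidative phosphorylation genes more (median ratio 2.25, 31.6% under 2). The most even member was Mrpl30, with a ratio of 1.06, at 66.5, 64.0, 62.7 and 65.1 FPKM. The least even was Mrps35, with a ratio of 5.74.

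In overexpression the members showed no common shift. Of 78, 1 rose and 2 fell in FLAG-CACUL1 against FLAG, beside 14.7% of all genes past 2-fold in either direction (7.51% rose and 7.22% fell). The median difference in log2(FPKM + 1) was -0.04 over the members and 0.09 over all genes, and 45 of 78 members lay below the median of all genes. The SD over members was 0.47, against 0.79 over all genes.

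Mrpl36 (NM_053163, chr13:73328513-73332178), which encodes a small protein with a bacterial counterpart, rose. It was at 7.45 FPKM in FLAG and 19.4 in FLAG-CACUL1, and at 25 in sh-Luc and 29.0 FPKM in sh-CACUL1. FLAG was its only low library. The difference was 1.27 on the log2(FPKM + 1) scale, and the FPKM ratio of 2.61 had a 95% counting interval of 2.08 to 3.29 for 1 kb of transcript, which covers counting error only.

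Mrps35 (NM_145573, chr6:147042764-147073991), a mitochondria-specific protein of the small subunit, was at 25.3 FPKM in FLAG and 10.3 in FLAG-CACUL1, and at 28.5 in sh-Luc and 59.4 FPKM in sh-CACUL1. It was lowest in the overexpressing line and highest in the depleted line, with similar values in the controls. It fell by 1.21 in overexpression and rose by 1.03 in knockdown on the log2(FPKM + 1) scale, and was the only member of the 78 past 2-fold in both comparisons. Mrpl45 (NM_025927, chr11:97315716-97329920), which holds the ribosome to the inner membrane, was at 36.3 FPKM in FLAG and 15.5 in FLAG-CACUL1, and at 19.1 in sh-Luc and 24.5 FPKM in sh-CACUL1. It fell by 1.17 in overexpression, and here FLAG alone was the high library.

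Just inside 2-fold were Mrpl14 (difference in log2(FPKM + 1) of -0.94), Mrps5 (-0.77) and Mrpl38 (-0.73) on the low side and Mrpl20 (0.86), Mrpl52 (0.84), Mrps6 (0.81) and Mrpl33 (0.77) on the high side. Mrpl14, the counterpart of bacterial L14, was at 114 FPKM in FLAG and at 58.9, 54.9 and 76.5 FPKM in FLAG-CACUL1, sh-Luc and sh-CACUL1. Mrpl33 had the opposite pattern, with 68.5 FPKM in FLAG and 118, 128 and 161 FPKM in the others. For both, as for Mrpl36 and Mrpl45, it was the FLAG control that stood apart, whereas for Mrps6 both FLAG lines were below both hairpin lines.

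In knockdown the members lay above most genes. Of 78, 6 rose and 0 fell in sh-CACUL1 against sh-Luc, beside 21.3% of all genes past 2-fold in either direction (4.94% rose and 16.4% fell). The median difference in log2(FPKM + 1) was 0.22 over the members and -0.30 over all genes, and 71 of 78 members lay above the median of all genes. On the scale as deposited 58 of 78 were above 0, with 31.3% of all genes. Under 3 other scalings of FPKM, members above 0 numbered 72 with quantile normalization (48.5% of all genes), 74 with median-of-ratios scaling (49.7%) and 66 with a common sum (37.5%). The SD over members was 0.42, against 0.84 over all genes.

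**Figure D2:**
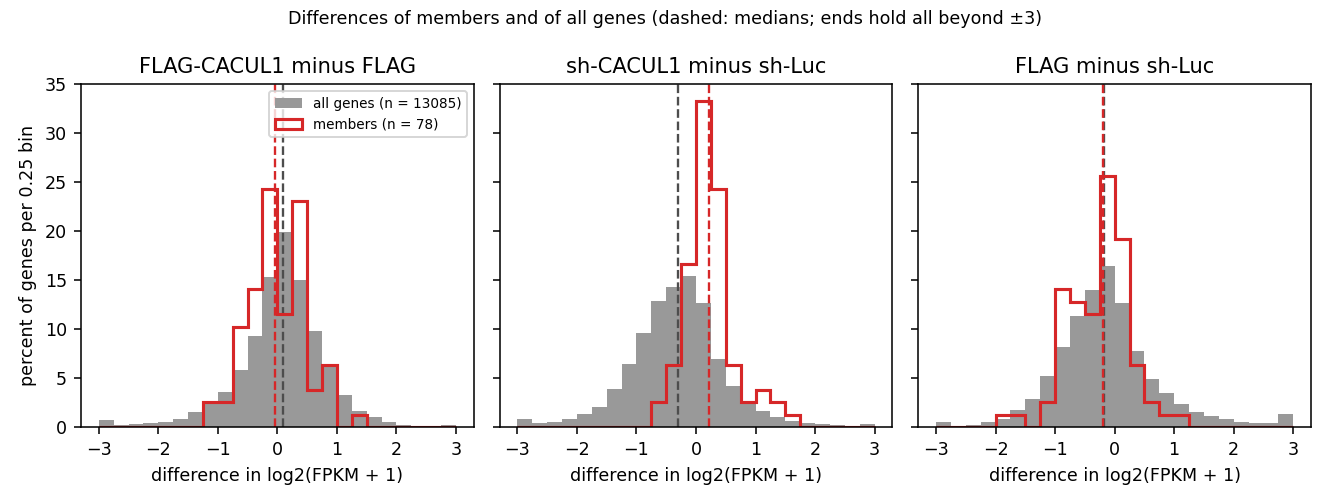
Percent of genes per bin of 0.25 in the difference of log2(FPKM + 1), for the 78 members (red outline) and all 13085 genes (grey), in FLAG-CACUL1 minus FLAG, sh-CACUL1 minus sh-Luc and FLAG minus sh-Luc. Dashed lines are medians, which lie apart in sh-CACUL1 minus sh-Luc (0.22 for members and -0.30 for all genes) and close together in the other panels.

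Mrpl12 (NM_027204, chr11:120484613-120489065), a stalk protein that recruits translation factors, had the largest difference. It was at 79.8 FPKM in FLAG and 49.3 in FLAG-CACUL1, and at 90.9 in sh-Luc and 263.9 FPKM in sh-CACUL1. The sh-CACUL1 library was the high one and the FLAG-CACUL1 library the low one. It rose by 1.53 on the log2(FPKM + 1) scale, with an FPKM ratio of 2.90 (95% counting interval 2.75 to 3.06 for 1 kb of transcript). The other stalk genes differed less. Mrpl10 was at 31.11, 31.01, 49.5 and 56.8 FPKM and Mrpl11 at 5.13, 6.15, 9.32 and 10.3 FPKM, with knockdown differences of 0.19 and 0.13. Slc25a10, a mitochondrial dicarboxylate carrier gene that begins 2774 bases downstream of Mrpl12 on the same strand, was at 42.5, 9.36, 26.5 and 99.2 FPKM and followed the same order of libraries within each comparison. It was looked up after the values were seen, and any part of it in the values of Mrpl12 was not tested.

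Mrpl20 (NM_025570, chr4:155802878-155809975), the counterpart of bacterial L20, was at 30.6 FPKM in FLAG and 56.6 in FLAG-CACUL1, and at 61.1 in sh-Luc and 151.8 FPKM in sh-CACUL1. It was higher in both manipulated lines than in their controls and rose by 1.30 on the log2(FPKM + 1) scale in knockdown. The next gene downstream on its strand, Ccnl2, lay 2513 bases away and had a knockdown difference of 1.61. In overexpression Ccnl2 was lower than in the control, with a difference of -0.67, where Mrpl20 was higher. Mrpl51 (NM_025595, chr6:125191801-125196269), a mitochondria-specific protein of the large subunit, was at 23.1, 17.9, 35.0 and 83.1 FPKM and rose by 1.22.

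Among small subunit genes, Mrps12 (NM_011885, chr7:28739641-28741820), the counterpart of the decoding centre protein S12 of bacteria, was at 20.5 FPKM in FLAG and 24.7 in FLAG-CACUL1, and at 13.4 in sh-Luc and 34.2 FPKM in sh-CACUL1. It rose by 1.29 in knockdown, and its sh-Luc value was the lowest of the 4. Mrps2 (NM_001166031, chr2:28468066-28471178), the counterpart of bacterial S2, was at 12.9, 15.7, 12.9 and 29.4 FPKM and rose by 1.13, with equal values in the controls. With Mrps35, the 6 members that rose were 3 of the 26 small subunit genes and 3 of the 51 large subunit genes, beside 4.94% of all genes. Of the 6, Mrpl12, Mrpl51 and Mrps35 were below their control in overexpression and Mrpl20, Mrps12 and Mrps2 above it.

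The lowest knockdown differences were those of Mrpl54 (-0.61), Mrpl47 (-0.52), Mrpl21 (-0.47), Mrps11 (-0.47) and Mrpl23 (-0.41) in log2(FPKM + 1), and none reached 2-fold. Mrpl23 turned to 0.028 under median-of-ratios scaling and the other 4 stayed below 0 under all 3 scalings. Mrpl54 was at 47.4, 63.2, 60.8 and 39.5 FPKM, so that sh-CACUL1 was its lowest library. Mrpl23, at 45.7, 55.1, 41.2 and 30.7 FPKM, shares 77.0% of its 31-base stretches with the pseudogene Mrpl23-ps1, and its value is uncertain for that reason. Exons of Mrpl47 overlap those of Ndufb5 and Actl6a on the opposite strand, and those of Mrps11 overlap Mrpl46. Whether counting used strand is not given in the sources used here.

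Members grouped by place in the ribosome had like medians. The 51 large subunit genes had a median difference of -0.09 in overexpression and 0.20 in knockdown. Of these, 1 rose and 1 fell in overexpression and 3 rose in knockdown. The 26 small subunit genes had medians of 0.01 and 0.23, the first turning to -0.03 under quantile and -0.14 under median-of-ratios scaling. Here 1 fell in overexpression and 3 rose in knockdown. Over all genes, 7.51% rose and 7.22% fell in overexpression, and 4.94% rose and 16.4% fell in knockdown. The 46 members with a bacterial counterpart had medians of -0.02 and 0.21, and the 31 mitochondria-specific ones -0.16 and 0.23.

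Genes within single structural groups also differed among themselves. The knockdown SD was 0.32 in the central protuberance, 0.28 around the exit tunnel and 0.43 over the 3 Mrps18 genes. It was 0.79 in the stalk and 0.42 over all members. In the central protuberance, Mrpl18, which binds 5S rRNA in other ribosomes, differed by 0.65 in knockdown, against 0.12 for Mrpl38, -0.22 for Mrpl40, 0.20 for Mrpl46 and 0.05 for Mrpl48, and Mrpl40 turned to 0.17 under quantile and 0.22 under median-of-ratios scaling. Around the exit tunnel, Mrpl22 differed by 0.15, Mrpl23 by -0.41 and Mrpl24 by -0.14, of which Mrpl24 was above 0 under all 3 other scalings. Mrpl22 shares 43.2% of its 31-base stretches with Gm6997. Exons of Mrpl24 share 594 bases with Rrnad1 on the opposite strand, so these values are uncertain too. Of the 3 paralogs of bacterial S18, Mrps18a was at 75.6, 90.8, 75.6 and 124 FPKM, Mrps18b at 57.1, 50.8, 65.7 and 78.0, and Mrps18c at 45.1, 56.0, 57.0 and 51.4. Their knockdown differences were 0.70, 0.25 and -0.15, the last of which turned to between 0.012 and 0.30 under the other scalings. Mrps36 was 0.39 and 0.38 higher in overexpression and knockdown than in the respective control.

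Set side by side, 33 of 78 members (42.3%) were below their control with overexpression and above it with knockdown, against 16.1% of all genes. The reverse, higher in overexpression and lower in knockdown, held for 11 members (14.1%) and 43.4% of all genes. A further 25 members (32.1%) were higher in both, against 15.2% of all genes, and 9 (11.5%) lower in both, against 25.3% of all genes. Under the other scalings the first pattern held for 37 to 43 members (18.8% to 28.0% of all genes) and its reverse for 2 to 6 (28.6% to 39.8% of all genes). The Pearson correlation of the differences was -0.11 across the 78 members and -0.31 across all genes, given as a description since genes of a library share its depth and scaling. Relative to the median of all genes, 42 members were lower with overexpression and higher with knockdown (29.1% of all genes), 4 the reverse (29.1%), 29 higher in both (20.8%) and 3 lower in both (20.8%).

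**Figure D3:**
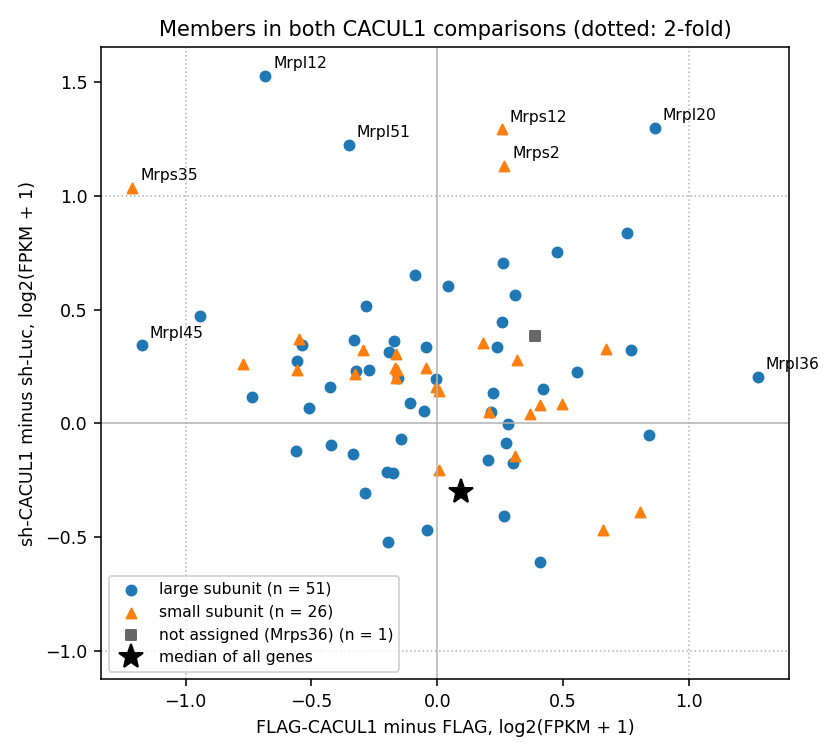
Difference in log2(FPKM + 1) of each member in FLAG-CACUL1 minus FLAG (x axis) and sh-CACUL1 minus sh-Luc (y axis), with large subunit genes as circles, small subunit genes as triangles and Mrps36 as a square. The star is the median of all genes (0.09 and -0.30), dotted lines are 2-fold, and the 8 members past 2-fold are named. Most members lie above the star.

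The order of the 4 libraries was also uneven. Of 78 members, 50 were highest in sh-CACUL1 (18.8% of all genes), 14 in sh-Luc (37.1%), 10 in FLAG (22.3%) and 4 in FLAG-CACUL1 (21.8%). Under the other scalings 63 to 66 were highest in sh-CACUL1, with 26.6% to 31.4% of all genes. The lowest library was FLAG-CACUL1 for 34 (16.7% of all genes), FLAG for 30 (30.4%), and sh-Luc and sh-CACUL1 for 7 each (11.3% and 41.6%). Against both controls at once, sh-CACUL1 was higher in 51 members (65.4%, and 21.8% of all genes) and FLAG-CACUL1 lower in 38 (48.7%, and 27.5% of all genes). The commonest orders were FLAG, FLAG-CACUL1, sh-Luc, sh-CACUL1 from low to high (17 members, and 6.03% of all genes) and the same with FLAG and FLAG-CACUL1 exchanged (16 members, and 3.44% of all genes).

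Between the controls, 1 member was 2-fold or more higher and 4 were 2-fold or more lower in FLAG than in sh-Luc, beside 21% of all genes past 2-fold in either direction (8.58% higher and 12.4% lower). Lower in FLAG were Mrps6 (-1.89), Mrpl36 (-1.62), Mrpl42 (-1.14) and Mrpl34 (-1.02), and higher was Mrpl14 (1.04), as differences in log2(FPKM + 1). Mrpl42 and Mrpl34 were named after their values were seen. The member median of -0.20 was close to that of all genes, -0.18, and turned to 0.094 under median-of-ratios scaling. On FPKM as deposited the controls thus differed in about as many members as did overexpression (3) or knockdown (6). Under quantile normalization 3 members passed 2-fold between the controls, 3 in overexpression and 9 in knockdown (19.0%, 14.1% and 17.3% of all genes). Under median-of-ratios scaling the counts were 4, 4 and 11 (19.1%, 14.7% and 16.8%). With a common sum they were 13, 3 and 7 (29.1%, 18.2% and 23.6%).

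Transcript length went with the knockdown difference over all genes. Among genes that reached 1 FPKM in every library, the median difference of sh-CACUL1 minus sh-Luc in log2(FPKM + 1) was -0.02 for transcripts under 1 kb, -0.31 from 1 to 2 kb, -0.46 from 2 to 4 kb and -0.58 at 4 kb and over. Members had medians of 0.18 (28 genes), 0.21 (30 genes), 0.27 (14 genes) and 0.25 (6 genes) in these bins, each above that of all genes in the bin. In overexpression the members under 1 kb had a median of 0.27 and those of the longer bins of -0.16, -0.18 and -0.31, while all genes ranged from 0.12 to 0.17. Lengths were those of GENCODE and are too long for some members.

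**Figure D4:**
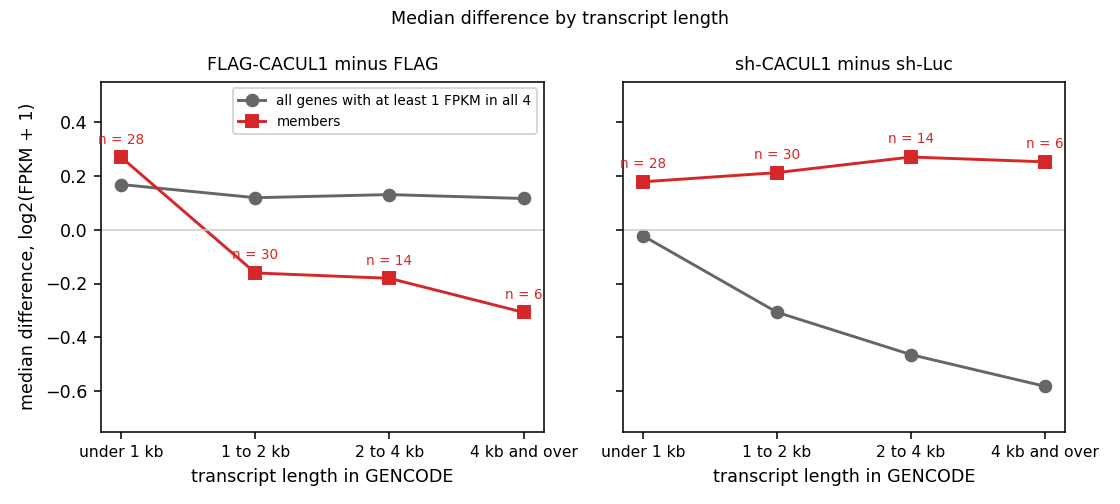
Median difference in log2(FPKM + 1) by transcript length for the members (red squares, with the number of genes) and for all genes with at least 1 FPKM in all 4 libraries (grey circles), in FLAG-CACUL1 minus FLAG (left) and sh-CACUL1 minus sh-Luc (right). In knockdown the grey line descends from -0.02 to -0.58 and the red line stays between 0.18 and 0.27.

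Few other genes of mitochondrial translation passed 2-fold, beside 14.7% of all genes in overexpression and 21.3% in knockdown. The 5 measured mitoribosome proteins outside the naming scheme had medians of -0.18 in overexpression and 0.30 in knockdown and none passed 2-fold. The nearest was Ptcd3, at 18.0, 13.5, 25.7 and 50.9 FPKM. None of 14 translation factors passed 2-fold in either comparison (medians 0.11, which turned to -0.02 under median-of-ratios scaling, and 0.10). The elongation factor Tufm differed by -0.45 and 0.69, and Lrpprc, which stabilises mitochondrial messages, by 0.51 and -0.60. Of 20 enzymes that charge mitochondrial tRNAs, Nars2 (-1.44) and Fars2 (-1.08) fell in overexpression and Lars2 (1.08) rose in knockdown. Their list medians were -0.14 and 0.13. These counts stand beside 7.22% of all genes that fell in overexpression and 4.94% that rose in knockdown.

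Of 27 genes for ribosome assembly and rRNA modification, 1 rose and 2 fell in overexpression and 1 rose in knockdown. The shares of all genes were 7.51% and 7.22% in overexpression and 4.94% that rose in knockdown. The list medians were 0.34 and -0.09, the latter turning to between 0.064 and 0.34 under the other scalings. Mterf4, which targets an rRNA methyltransferase to the ribosome, was at 9.36 FPKM in FLAG and 63.9 in FLAG-CACUL1, and at 236 in sh-Luc and 149 FPKM in sh-CACUL1. FLAG was far below the other libraries, and the overexpression difference was 2.65. Rpusd3, a pseudouridine synthase, was at 8.69, 3.19, 8.05 and 17.9 FPKM, fell by 1.21 in overexpression and rose by 1.06 in knockdown. Malsu1 fell by 1.19 in overexpression. In the list for mitochondrial DNA transcription and RNA processing (17 genes, medians -0.05 and 0.19), Polg2 fell by 1.27 and Hsd17b10 by 1.02 in overexpression. None of this list passed 2-fold in knockdown on FPKM as deposited. Under quantile and median-of-ratios scaling 2 rose in knockdown, and 1 with a common sum. The mitochondrial RNA polymerase Polrmt differed by -0.29 and -0.65 and the transcription factor Tfam by 0.32 and -0.59.

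Among 9 regulators of nuclear genes for mitochondria, Pprc1 rose by 1.48 and Ppargc1b fell by 2.11 in overexpression, and Esrra rose by 1.02 and Pprc1 fell by 1.09 in knockdown. Past 2-fold were also 14.7% of all genes in overexpression and 21.3% in knockdown, so these counts do not set the 9 apart. Nrf1, whose motif was searched above, differed by -0.44 and -0.62, Gabpa by -0.17 and -0.87, Ppargc1a by 0.72 and -0.996, which is just short of 2-fold, and Myc by -0.59 and 0.85. Members with an NRF1 match (13 genes) had medians of -0.19 in overexpression and 0.31 in knockdown, and those without (56 genes) 0.19 and 0.21. With an ETS match (26 genes) the medians were 0.13 and 0.24, and without (43 genes) -0.05 and 0.21. With a YY1 match (11 genes) they were 0.01 and 0.20, and without (58 genes) -0.0049 and 0.24. No test of these differences was made.

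The cytosolic ribosomal protein genes, also 78, had medians of 0.03 in overexpression, which turned to -0.12 under median-of-ratios scaling, and 0.20 in knockdown, the latter 0.50 above the median of all genes, where the mitochondrial ones lay 0.52 above. Of these, 1 rose in overexpression, and 1 rose and 1 fell in knockdown. Over all genes, 7.51% rose and 7.22% fell in overexpression, and 4.94% rose and 16.4% fell in knockdown. The 79 oxidative phosphorylation subunit genes had medians of -0.26 and 0.87, with 9 that fell in overexpression and 30 that rose in knockdown. Among them Cox7a1 and Cox8b, subunits of cytochrome c oxidase, fell by 4.69 and 2.87 and rose by 2.17 and 3.38. Against sh-Luc, the knockdown median of the mitochondrial ribosomal protein genes was close to that of cytosolic ribosomal protein genes. It was below that of the respiratory chain. Under quantile normalization it was 0.58 against 0.23 for the cytosolic genes. Under median-of-ratios scaling it was 0.64 against 0.65, and with a common sum 0.38 against 0.36. With FLAG as the control, on FPKM as deposited, it was 0.34, against -0.04 for the cytosolic and 0.71 for the oxidative phosphorylation genes. In FLAG minus sh-Luc the mitochondrial and cytosolic medians were -0.20 and 0.22, so their closeness depended on the control. No test of these differences was made.

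**Figure D5:**
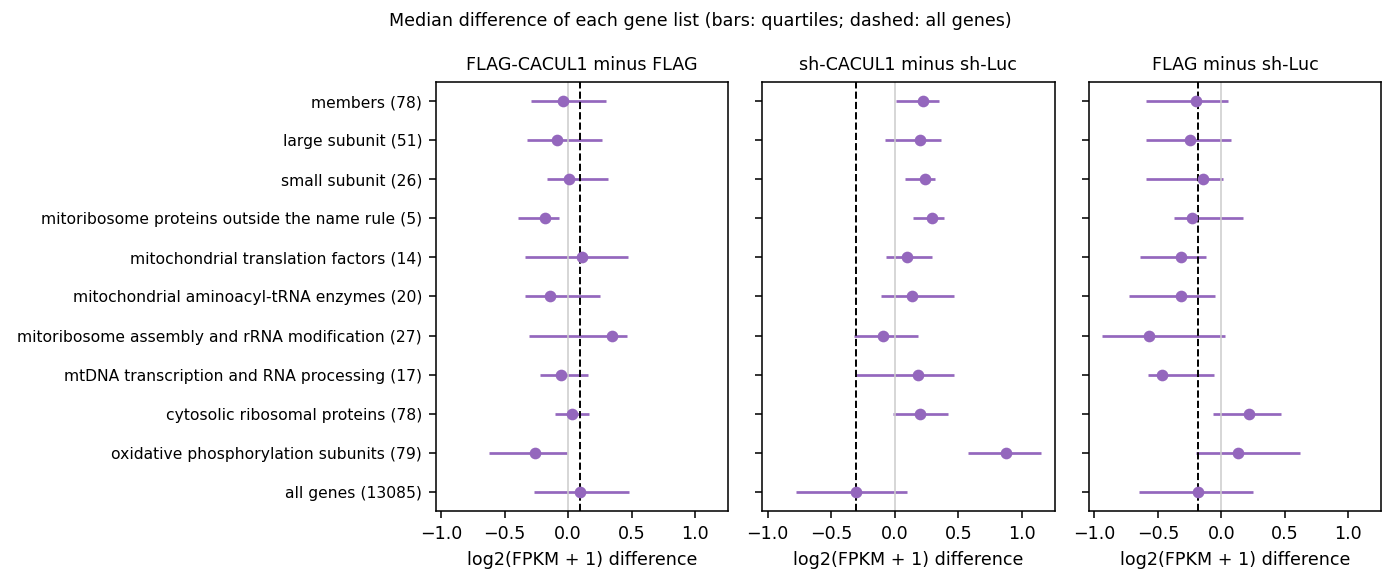
Median difference in log2(FPKM + 1) of each gene list (points, with the number of genes measured in parentheses) and its quartiles (bars), in FLAG-CACUL1 minus FLAG, sh-CACUL1 minus sh-Luc and FLAG minus sh-Luc. The dashed line is the median of all genes. In the middle panel the mitochondrial and cytosolic ribosomal protein genes have medians of 0.22 and 0.20 and oxidative phosphorylation genes of 0.87.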

How the data were processed

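RNA was sequenced from 4 stable 3T3-L1 lines, 1 library each. The authors deposited FPKM values for 13110 rows of RefSeq transcripts per library, made by a sequencing company. The submitters' processing notes name the build mm10. The aligner, the program, the scaling, the use of strand and any filter are not given in the sources used here. Symbols came from GENCODE M21 (12919 rows) and a RefSeq table (144 rows), 47 rows had none, and 50 rows of 25 symbols were summed, which left 13085 genes. Coordinates are those of GENCODE on GRCm38. Differences are of log2(FPKM + 1), which understates low genes, and were made over all genes with a cut-off of 2-fold. No test was possible with 1 library per line. Depth was estimated from the spacing of low FPKM values, and counting intervals (95%) cover counting error only.

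The members and gene lists were chosen with earlier results of these data known. Genes were named where they passed 2-fold, were among the 5 highest or 5 lowest differences per comparison or the 3 highest or 3 lowest means, or had a role listed by hand, which gave 34 members. In the other lists, 10 genes picked by hand and the 2 largest differences past 2-fold per list were named. Other names, among them Adipoq, Thy1, Dlk1, Csf1r, Ptcd3, Malsu1, Fars2, Slc25a10 and Ccnl2, were chosen after their values were seen. The alternatives were other pseudocounts, scalings, cut-offs, filters and controls. Motifs were counted by exact match. Python 3.11.15, numpy 2.4.6, pandas 2.3.3, scipy 1.17.1 and matplotlib 3.10.9 were used, and the code was checked on simulated data. Mitochondrial rRNA was not analysed here.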

Additional observations from a re-analysis of the deposited data

How the results depend on the processing

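No paired analysis was possible because each line had 1 library, and for the same reason no library could be left out. The count of members past 2-fold in overexpression (3) was 14 at 1.5-fold and 0 at 3-fold. In knockdown (6) it was 11 under median-of-ratios scaling, 12 at 1.5-fold, 0 at 3-fold and 15 with FLAG as the control. Between the controls (5) it was 3 under quantile normalization, 13 with FPKM scaled to a common sum, 22 at 1.5-fold and 2 at 3-fold. The overexpression median (-0.04) was -0.19 under median-of-ratios scaling and -0.20 with sh-Luc as the control. The knockdown median (0.22) was 0.58 under quantile normalization, 0.64 under median-of-ratios scaling, 0.38 with FPKM scaled to a common sum and 0.34 with FLAG as the control. The median between the controls (-0.20) reversed to 0.094 under median-of-ratios scaling and was -0.38 with FPKM scaled to a common sum. These scalings also move the median of all genes, in knockdown from -0.30 to -0.013, -0.0020 and -0.23, respectively, in the order quantile, median-of-ratios and common sum. The cause of the moves was not tested. All 8 members past 2-fold stayed past it under the other pseudocounts and scalings. The scalings of single members, gene lists and library order were added after seeing the data. The single library per line limits all these results, and the depth behind the counting intervals is an estimate.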
